A study of Mus musculus with 10 samples.

Results

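An 8.1 Mb window of mouse chromosome 13, from 60.9 to 69 Mb of the mm9 build, was described by its chromosome contacts. It holds arrays of KRAB zinc finger genes and, at its downstream end, a flank in which a short domain at 68.43 to 68.54 Mb was listed. The window was selected on measured values of these libraries: the presence of the short domain in knockout lists and its absence from WT lists chose it, so both are given as a description with no test. Members were all interacting bin pairs with at least 1 end in the window and all topologically associating domains (TADs) overlapping it. There were 356 pairs of 17029 and 132 TADs of 41342 over all libraries, together 488 of 58371 regions. Below, "arrays" stands for the window upstream of 68 Mb and "flank" for the rest.

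The cells were ES-E14TG2a, a mouse embryonic stem cell line kept feeder-free with LIF and inhibitors of GSK3b and MEK. The genotypes, with 2 libraries each, were E1-KO, which lacks enhancer E1, E2-KO and E3-KO, which lack E2 or E3, the double knockout E1&E3-dKO, and WT. The labels give neither the position of the enhancers nor whether the libraries of a genotype are separate clones or cultures, so a p-value here covers the spread between libraries, which may be technical. The titles of both E2-KO libraries, E3-KO replicate 2 and WT replicate 1 begin with w326, whose meaning is not stated, and the measures compared over libraries are also given within and outside these 4. The assay was exo-Hi-C, a Hi-C variant in which exonucleases remove linear DNA after proximity ligation.

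Hi-C counts how often a pair of genomic segments is ligated together. A TAD is a stretch whose segments contact each other more than their surroundings, and in mammals its ends are often set by cohesin halted at CTCF. KRAB zinc finger genes lie in tandem arrays that grew by duplication. Their proteins bind DNA, often in transposable elements, and recruit the co-repressor TRIM28 (KAP1), which brings repressive chromatin, a pathway known for silencing retroelements in embryonic stem cells. Arrays of such near-identical genes are also stretches in which short reads can be hard to place.

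No mm9 annotation was used here, so no gene was placed on a pair or a TAD, and the name of the arrays was not checked against gene positions. In the gene order of GRCm38, the longest run of genes named Zfp or Rsl on the chromosome held 25 genes, from Zfp712 to Zfp273. It includes Rsl1 and Rslcan18, of which Rsl1 is known to regulate male-specific liver genes. The gene Ptdss1, a phosphatidylserine synthase, preceded the run, and Mtrr, methionine synthase reductase, and Fastkd3, a mitochondrial RNA-binding protein, followed it. Chromosome 13 had 39 genes so named among 829 coding genes.

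The lists held 466 to 6014 pairs and 2715 to 7962 TADs per library. A listed pair joins bins of 10 kb and has a count of reads, an adjusted p-value no higher than 0.01 and a factor for each bin, which is the coverage of the bin as a ratio to an average bin. Total depth is unknown. The contacts expected for a pair were solved from its deposited p-value as a Poisson mean. After division by both bin factors, this mean was equal for all pairs of the same span in a library, over 2563 combinations of library and span, with a largest relative difference of 1.05e-05. Reads divided by this expectation are called enrichment below. Expected contacts differ between libraries, and a listed pair rests on fewer reads where they are low.

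The short domain was listed in 7 knockout libraries. The authors' score of it was 3.85 in E1-KO replicate 2, 21.3 and 9.83 in the E2-KO libraries, 3.28 and 7.52 in the E3-KO libraries, and 3.72 and 5.10 in the E1&E3-dKO libraries. It was the highest-scoring TAD of the whole list in 4 libraries, both E2-KO libraries, E3-KO replicate 2 and E1&E3-dKO replicate 2, and ranked between 4 and 5 in the other 3. E1-KO replicate 1 had a TAD of 360 kb from 68.09 to 68.45 Mb instead, with a score of 2.83. Both WT libraries had 1 TAD of 520 kb from 68.09 to 68.61 Mb, with scores of 2.86 and 3.02. The stretch that formed 1 TAD in WT thus held a 110 kb TAD in 7 of 8 knockout libraries. A boundary within 20 kb of 68.43 Mb was listed in all 8 knockout libraries, in E1-KO replicate 1 as the downstream end of its 360 kb TAD, and in neither WT library.

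**Figure D1:**
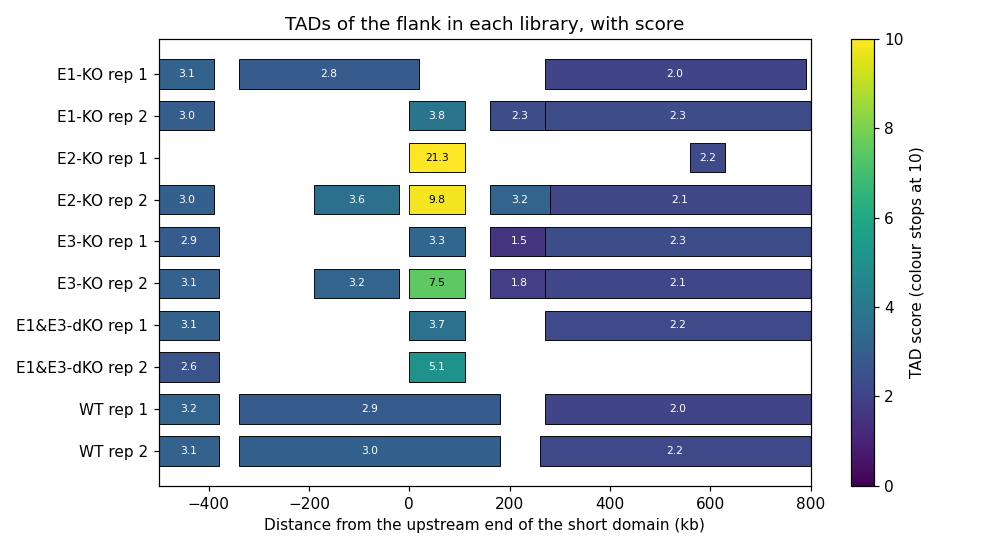
TADs of the flank in each library (rows), drawn by their distance in kb from the upstream end of the short domain, with the deposited score printed and shown as colour. The 110 kb TAD at 0 appears in 7 knockout libraries, with scores of 3.28 to 21.3, and both WT libraries show a 520 kb TAD over the same stretch.

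Further short TADs stood on either side of it. A TAD at 68.24 to 68.41 Mb was listed in E2-KO replicate 2 with a score of 3.64 and in E3-KO replicate 2 with 3.19. A TAD at 68.59 to 68.71 Mb was listed in 4 libraries, E1-KO replicate 2, E2-KO replicate 2 and both E3-KO libraries, with scores of 1.55 to 3.17. Neither was listed in WT. Downstream, a TAD from about 68.70 to 69.61 Mb was listed in 7 libraries, both WT libraries among them, with a mean score of 2.17 ± 0.115 (SD, n = 7).

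Inside the short domain, near its ends, lay a listed pair 80 kb apart, joining the bins at 68.445 and 68.525 Mb. It had 20 and 16 reads for E1-KO, 20 and 30 reads for E2-KO, 15 and 23 reads for E3-KO, and 14 and 16 reads for E1&E3-dKO. Neither WT library listed it. In E2-KO replicate 1 the bins were 68.455 and 68.515 Mb, within the tolerance of 1 bin used for calling pairs the same. Its enrichment was 13.2 and 19.6 for E1-KO, 107 and 32.3 for E2-KO, 13.1 and 37.1 for E3-KO, and 17.1 and 37.1 for E1&E3-dKO. Reads lay between 14 and 30, and enrichment between 13.1 and 107, highest in E2-KO replicate 1, where the fewest contacts were expected at this span. Pair and TAD come from the same contacts of the same libraries and are not independent of each other.

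Pairs around the short domain were listed in WT as well. The pair from 68.255 to 68.395 Mb, 140 kb apart, was in all 10 libraries. It had 12 and 17 reads for E1-KO, 27 and 27 reads for E2-KO, 12 and 18 reads for E3-KO, 9 and 8 reads for E1&E3-dKO, and 10 and 11 reads in WT. The pair from 68.305 to 68.595 Mb, 290 kb apart, was also in all 10. It had 12 and 20 reads for E1-KO, 30 and 29 reads for E2-KO, 16 and 21 reads for E3-KO, 10 and 11 reads for E1&E3-dKO, and 15 and 11 reads in WT. The WT reads of both pairs lay inside the range of the knockout libraries. The second of them starts upstream of the short domain and ends downstream of it, so the segments flanking the domain were joined in every library.

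**Figure D2:**
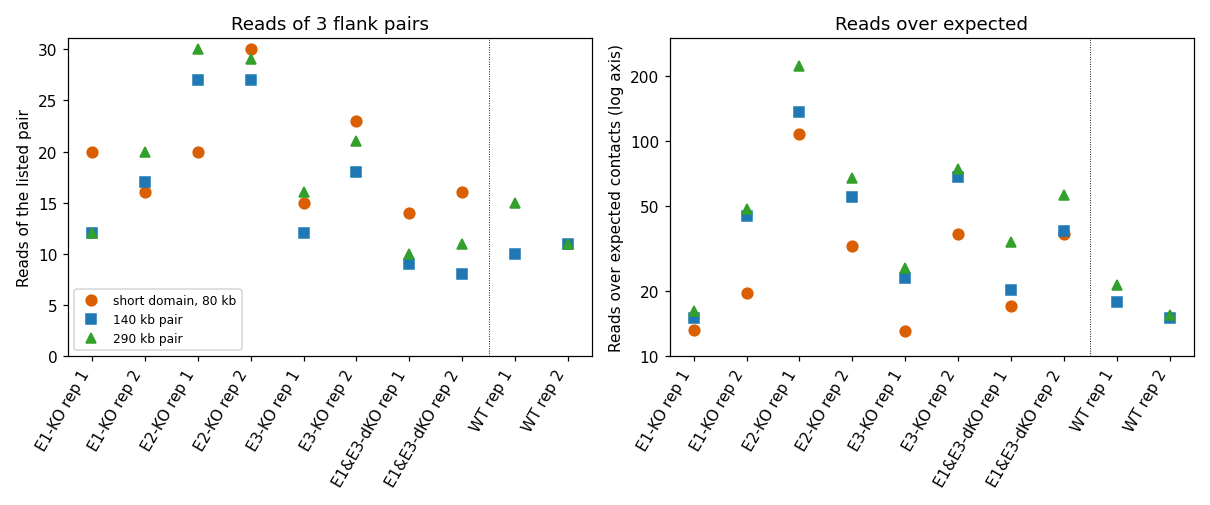
Reads (left) and reads over expected contacts on a log axis (right) of 3 pairs of the flank in each library; the dotted line separates knockout from WT libraries. The 80 kb pair of the short domain has 14 to 30 reads in the 8 knockout libraries and no point in WT, while the 140 kb and 290 kb pairs are present in all 10.

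The enrichment of the 80 kb pair was below that of the 140 kb pair in each knockout library, with a ratio of 0.881 and 0.436 for E1-KO, 0.793 and 0.590 for E2-KO, 0.570 and 0.549 for E3-KO, and 0.842 and 0.971 for E1&E3-dKO. In WT the 140 kb pair had an enrichment of 17.9 and 15.0.

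All listed bins of the series had factors between 0.5 and 2, and all listed pairs an adjusted p-value no higher than 0.01. The bin at 68.525 Mb had factors of 0.517 and 0.621 for E1-KO, 0.744 and 0.764 for E2-KO, 0.538 and 0.675 for E3-KO, and 0.560 and 0.550 for E1&E3-dKO. This bin is in no listed pair of WT, so its factor there is unknown. An average pair at 80 kb was expected to have 2.27 and 1.06 contacts for E1-KO, 0.172 and 0.846 for E2-KO, 1.80 and 0.731 for E3-KO, 1.11 and 0.628 for E1&E3-dKO, and 2.05 in WT replicate 1. At the factors seen in knockouts, listing the 80 kb pair took 13 to 17 reads in E1-KO replicate 1, 6 to 7 in E2-KO replicate 1 and 13 to 16 in WT replicate 1. For WT replicate 2 the nearest listed span was 90 kb, and its expectation gave 13 to 17 reads. Pairs of at most 120 kb numbered 19 to 381 in the knockout lists, against 107 and 1 in WT replicates 1 and 2. The part of these limits in the absence from WT was not tested.

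Other flank pairs differed more between libraries. The flank had 79 listed pairs, which made 17 distinct ones, 8 of them in 1 library each. The pair from 68.145 to 68.595 Mb was in 7 knockout libraries and WT replicate 1, with 7 to 19 reads. The pair from 68.125 to 68.415 Mb was in 7 knockout libraries, all but E1&E3-dKO replicate 1, with 10 to 21 reads, and in no WT library. A pair from 68.095 to 68.525 Mb, which ends in the bin at the downstream end of the short domain, was in both E2-KO libraries with 10 and 12 reads and in E3-KO replicate 2 with 7. The same 3 libraries held the pair from 68.135 to 68.325 Mb, with 8 to 13 reads. The pairs from 68.295 to 68.695 Mb and from 68.605 to 68.705 Mb were in both E2-KO libraries alone, with 7 to 10 reads.

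No listed pair joined the arrays with the flank. The count was 0 in each of the 10 libraries, although 312 pairs had both ends inside the window. Pairs inside the window spanned up to 1510 kb, a span reached in 1 library. Over all libraries, the last pair upstream ended at 67.925 Mb and the first of the flank began at 68.095 Mb. The gap was 170 kb, but that upstream pair was in E2-KO replicate 1 alone, with 7 reads. Apart from both E2-KO libraries and E1&E3-dKO replicate 2, no pair inside the arrays ended beyond 66.975 Mb. The distance to the flank was thus longer in those libraries, both WT libraries among them, and few pairs inside the window were as long. No TAD of any library crossed the 170 kb gap: 0 TADs began before 68 Mb and ended more than 100 kb beyond it. A TAD from 66.96 to about 68.05 Mb was listed in 9 libraries with a mean score of 3.00 ± 0.183 (SD, n = 9), and both WT TADs of the flank began at 68.09 Mb. The lists hold significant pairs only, so a count of 0 says nothing about weaker contacts between arrays and flank.

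**Figure D3:**
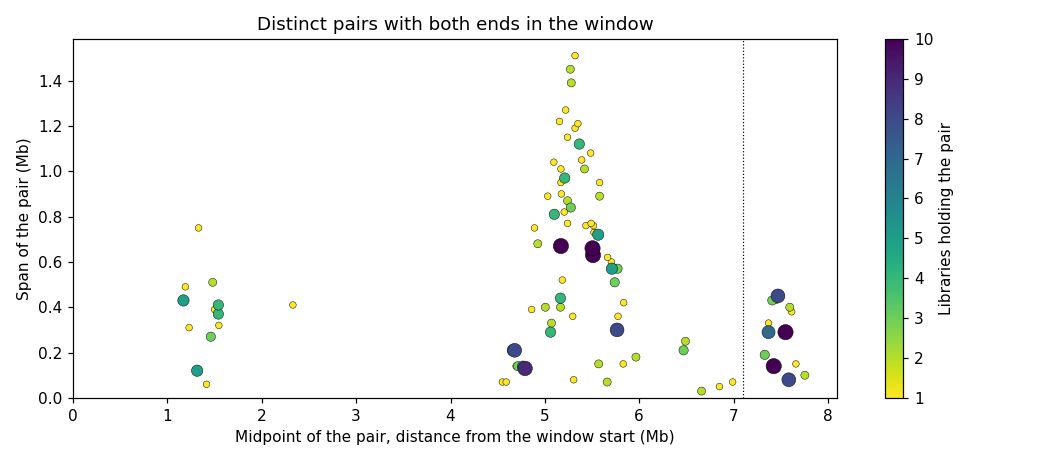
Distinct pairs with both ends in the window, by the distance of their midpoint from the window start and their span, both in Mb; colour and size give the number of libraries. The dotted line marks the limit between arrays and flank, and no pair reaches over it; the pairs of the central block span up to 1.51 Mb.

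Overlapping pairs with both ends inside the window fell into 8 blocks. The central one, from 65.415 to 66.975 Mb, held 190 pairs from all 10 libraries. These were 10 and 18 pairs for E1-KO, 63 and 38 for E2-KO, 8 and 19 for E3-KO, 9 and 10 for E1&E3-dKO, and 11 and 4 in WT. They made 64 distinct pairs, of which 3 were in all 10 libraries: 66.075 to 66.735 Mb with 13 to 29 reads, 66.095 to 66.725 Mb with 7 to 21 reads and 65.735 to 66.405 Mb with 8 to 25 reads. The ends of the first and second lie within 2 bins of each other, and a listed pair within 1 bin of both was counted for both. Their reads were equal in E1-KO replicate 1 (16), E3-KO replicate 1 (14), E1&E3-dKO replicate 1 (14) and WT (16 and 14). The first and second are therefore not separate recurrent pairs. The bins with the most partners were those at 65.485, 65.625 and 65.755 Mb, with 5 partner bins each, in 4, 9 and 8 libraries. Bins with 4 partner bins included 68.305 Mb in the flank, with pairs in all 10 libraries, and 66.825 Mb, in 6. Those at 68.605, 66.105 and 66.515 Mb, in 8, 7 and 9 libraries, had 4 as well. The partners of 68.305 Mb did not all recur: that at 78.355 Mb was in 1 library, with 3 reads. The pair from 65.625 to 65.755 Mb was in 9 libraries, all but WT replicate 2, with 10 to 34 reads. The pair from 66.515 to 66.815 Mb was in 8 libraries, both WT libraries among them, with 7 to 33 reads. The pair from 65.475 to 65.685 Mb was in 7 knockout libraries and WT replicate 1, with 7 to 21 reads.

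The upstream block, from 61.835 to 62.645 Mb, held 36 pairs in 8 libraries and none in WT. E2-KO had 15 and 9 of them, E1-KO 1 and 4, E3-KO 1 and 3, and E1&E3-dKO 2 and 1, against 0 and 0 in WT. A stretch of 1980 kb followed the single pair at 63.025 to 63.435 Mb in which no pair with both ends inside the window lay, though 16 listed pairs that left the window had an end there. Between the central block and the flank lay 4 small blocks with 10 pairs in all, all but 1 of them in E2-KO. The flank block, from 68.095 to 68.705 Mb, held 75 pairs, with 7 and 6 for E1-KO, 14 and 16 for E2-KO, 7 and 9 for E3-KO, 4 and 5 for E1&E3-dKO, and 4 and 3 in WT.

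**Figure D4:**
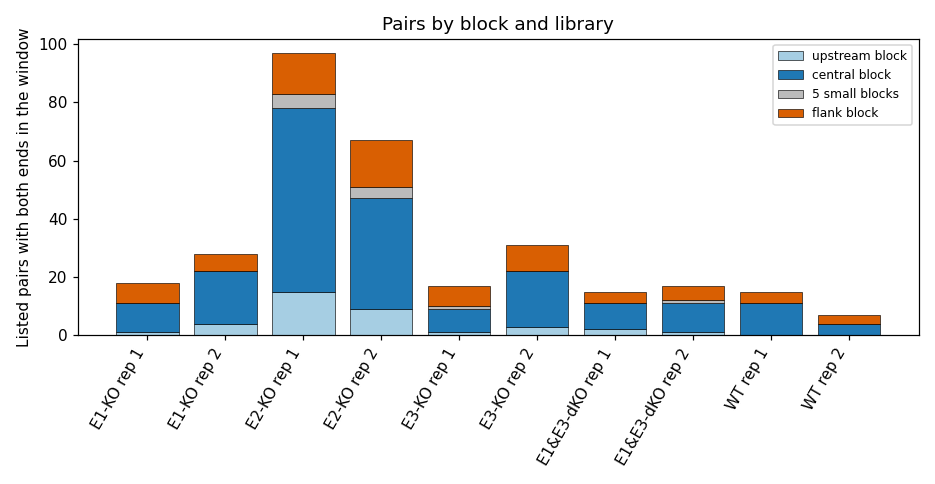
Listed pairs with both ends in the window in each library, stacked by block. The E2-KO libraries, both titled w326, have 97 and 67 such pairs. The WT libraries, of which replicate 1 is titled w326, have 15 and 7. The central block holds the most pairs in each library.

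The TADs of the arrays gave a second view of the same blocks. A TAD at 65.61 to 65.78 Mb, whose ends lie by the bins at 65.625 and 65.755 Mb, was listed in all 10 libraries, alone among the 58 distinct TADs of the window. It scored 3.11 and 4.00 for E1-KO, 9.56 and 5.94 for E2-KO, 2.75 and 4.25 for E3-KO, 3.13 and 3.59 for E1&E3-dKO, and 2.72 and 2.97 in WT. A TAD at 66.50 to 66.83 Mb was listed in 7 libraries, all but both E2-KO libraries and WT replicate 2, with a mean score of 3.30 ± 0.750 (SD, n = 7). E2-KO replicate 1 lacked the TAD from 66.96 to 68.05 Mb and had 4 short ones in its place, at 67.36 to 67.43, 67.53 to 67.59, 67.69 to 67.83 and 67.84 to 67.94 Mb, with scores of 2.86, 4.57, 4.07 and 4.41. That library lists the most TADs of the series, 7962, with a median length of 90 kb in the arrays and in the rest of the chromosome.

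The scores of the short domain and of the array TAD at 65.61 Mb put the 7 libraries that list both in nearly the same order. Both were highest in E2-KO replicate 1, then E2-KO replicate 2 and E3-KO replicate 2, and both were lowest in E3-KO replicate 1. As a description, with no test since the short domain chose the window, Pearson's r was 0.98 and Spearman's rho 0.96 (n = 7). Without both E2-KO libraries r was 0.75 and rho 0.90 (n = 5). In the 4 of these libraries not titled w326 r was 0.52 and rho 0.80, and those titled w326 number 3. The size of r thus depended on the E2-KO libraries. The 3 libraries titled w326 had the 3 highest scores of both TADs, so the upper part of the order cannot be told apart from the title. Libraries differ in their scores as a whole, with a median over all TADs of a library of 1.67 to 2.05. This relation was looked for after the values were seen.

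Pairs of the window recurred between libraries in larger numbers than those of the rest of chromosome 13. Of 139 distinct pairs in the window, 16 (11.5%) were in at least 5 libraries and 5 in all 10. A listed pair close to more than 1 distinct pair counted for each, which can raise these counts where pairs are dense. The pairs from 66.075 to 66.735 Mb and from 66.095 to 66.725 Mb, both in all 10, are such a case. Of 497 in the rest of the chromosome, 2 (0.402%) were in at least 5 and 0 in all 10, and of 13820 in the rest of the genome 1.38% were in at least 5. The median span was 760 kb in the window, against 28380 kb in the rest of chromosome 13, and 64.0% of the window's pairs were in 1 library, against 97.2%. The window's share of all pairs on chromosome 13 was 39.5% over all libraries. Recurrence of pairs and their number contributed to the choice of the window, so no test is given. For TADs, 34 of 58 in the window (58.6%) were in 1 library, against 548 of 792 (69.2%) in the rest of the chromosome. In at least 8 libraries were 2 of 58 (3.45%), against 50 of 792 (6.31%), and in all 10 were 1 of 58, against 7 of 792.

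Pairs that left the window were of another kind. There were 44, of which 19 had their other end upstream and 25 downstream. Their median span was 36.2 Mb and their median count 3 reads. Of 43 distinct ones 42 were in 1 library, and E1&E3-dKO replicate 2 alone had 21 of the 44. The pair from 61.735 to 77.765 Mb, in E1-KO replicate 1 and E2-KO replicate 1 with 4 reads each, was the one found in more than 1 library. At the limits of the window, the outermost pair end inside was at 61.135 Mb in 2 libraries and the nearest end outside at 60.895 Mb in 1, while at the downstream limit they were at 68.805 and 69.135 Mb, in 1 library each.

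Each knockout was compared with WT by the pairs and boundaries held by both of its libraries and by neither WT library, called gained, or the reverse, called lost. In E2-KO, 32 of 99 distinct pairs in the window were gained, against 5.44% in the whole genome. In E1-KO 3 of 36 pairs were gained, against 1.27%, in E3-KO 3 of 48, against 0.697%, and in E1&E3-dKO 3 of 49, against 0.196%. Lost pairs numbered 0 in each knockout, against 0.308% for E1-KO, 0.0992% for E2-KO, 0.0581% for E3-KO and 0.123% for E1&E3-dKO in the whole genome. All 4 comparisons share the WT libraries, and the window was selected with these calls in view, so nothing is read from the shares. With 2 libraries against 2 the smallest exact p is 0.333, and no test was made for a single knockout. With 1 library left out, gained plus lost pairs reached 15 without E1-KO replicate 1, 72 without E2-KO replicate 2, 27 without E3-KO replicate 1 and 30 without E1&E3-dKO replicate 1.

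The gained pairs lay in the named blocks. In E2-KO, 17 of the 32 lay in the central block, 6 in the upstream block and 6 in the flank block, and 12 of the 32 were in no other library. The pair with the smallest mean p among them joined 66.035 and 66.925 Mb, with 21 and 23 reads in E2-KO and no other library. The next joined 65.845 and 66.285 Mb, with 22 and 25 reads in E2-KO, and was also in 2 other knockout libraries. In E1-KO the 3 gained pairs were 68.125 to 68.415 Mb with 14 and 16 reads, the pair of the short domain, and 61.855 to 62.285 Mb with 12 reads in each library. In E3-KO they were the pair of the short domain, 68.125 to 68.415 Mb with 10 and 16 reads, and 66.105 to 66.825 Mb with 11 reads in each library. In E1&E3-dKO they were 65.705 to 66.825 Mb with 7 and 14 reads, the pair of the short domain, and 62.155 to 62.275 Mb with 11 and 9 reads.

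Boundaries were called in both directions. Gained boundaries in the window numbered 2 of 34 in E1-KO (3.19% in the whole genome), 8 of 63 in E2-KO (6.03%), 2 of 46 in E3-KO (3.68%) and 2 of 38 in E1&E3-dKO (4.2%). Lost ones numbered 3 of 34 in E1-KO (3.76%), 3 of 63 in E2-KO (2.67%), 2 of 46 in E3-KO (2.51%) and 5 of 38 in E1&E3-dKO (2.95%). The boundary at 68.43 Mb was gained in all 4 knockouts and that at 68.54 Mb in every knockout but E1-KO. The WT boundary at 68.09 Mb was lost in those same 3. In E1-KO the other gained boundary was at 65.46 Mb, and its lost ones were at 61.75, 64.42 and 65.25 Mb. The end listed at 65.45 Mb in E1-KO replicate 2 also lies within 20 kb of the WT boundary at 65.43 Mb, so the gain at 65.46 Mb depends on the tolerance. E2-KO also gained a boundary at 64.70 Mb and lost those at 62.86 and 65.43 Mb, E3-KO lost that at 62.99 Mb, and E1&E3-dKO lost those at 65.25 and 68.59 Mb. Several of these losses depend on the tolerance too. The WT replicate 2 end at 62.97 Mb also counts for the boundary at 62.96 Mb, which E3-KO replicate 1 lists. E2-KO replicate 2 and E1&E3-dKO replicate 2 list TADs at 65.23 to 65.40 and 65.22 to 65.43 Mb, which count as the same TAD as that of both WT libraries. With 1 library left out, gained plus lost boundaries reached 13 in E1-KO without WT replicate 1, 40 without E2-KO replicate 2, 18 without E3-KO replicate 1 and 17 without E1&E3-dKO replicate 1.

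Over the whole genome, 1 of 13959 distinct pairs was in all 8 knockout libraries and neither WT library (0.00716%), and it was the pair of the short domain. It was the 1 such pair among 139 of the window. E2-KO replicate 1 counts here through the tolerance of 1 bin, since its listed pair joined 68.455 and 68.515 Mb. For boundaries it was 1 of 74 in the window, that at 68.43 Mb, against 0.0279% of 28668 in the genome, and for TADs 0 of 58, against 0.00925% of 21618, because E1-KO replicate 1 does not list the short domain. The rule that chose the window used these calls.

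The share of pairs in the arrays is given with no test, since the number of pairs contributed to the choice of the window. Pairs with an end in the arrays made 2.31% ± 1.57 of a list in the knockout libraries (SD, n = 8) and 1.01% ± 0.0921 in WT (SD, n = 2), a difference of 1.31 percentage points. Within the libraries titled w326 the difference was 2.23 points, and in the others 0.728 points, each set holding 1 WT library. Per library the shares were 1.22% and 4.44% for E1-KO, 2.55% and 4.86% for E2-KO, 1.45% and 2.11% for E3-KO, 1.41% and 0.482% for E1&E3-dKO, and 0.943% and 1.07% in WT. The WT shares lay inside the range of the knockout libraries through E1&E3-dKO replicate 2 alone, which has the longest list, 6014 pairs. Every other knockout library lay above both WT libraries. With equal numbers of best pairs the difference was 2.09 points, and with an adjusted p of at most 0.001 it was 0.818 points.

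TAD length, bin factors and reads per pair in the arrays were tested over libraries. Their adjusted p-values are over 7 comparisons, which include the share of pairs and its spread within genotypes. For TAD length no difference passed. Its geometric mean over libraries was 209 kb in knockouts (n = 8) and 233 kb in WT (n = 2), a log2 difference of -0.16 (two-sided exact permutation p = 0.844, adjusted p = 0.934). The sign depended on the libraries: it was -1.61 within the libraries titled w326 and 0.90 in the others, each set holding 1 WT library. The spread of log2 TAD length within genotypes was 0.78 (one-sided exact permutation p = 0.187, adjusted p = 0.452), with 0.83 within the libraries titled w326 and 0.51 in the others. E2-KO and E3-KO had the same geometric mean, 120 kb, and E1-KO and E1&E3-dKO had 361 and 369 kb. Against the rest of chromosome 13, the log2 difference in median TAD length was 0.02 ± 0.64 (SD, n = 10), above 0 in 5 libraries (two-sided exact sign-flip permutation p = 0.934, adjusted p = 0.934), with -0.25 in the libraries titled w326 and 0.19 in the others. Reads per pair in the arrays, set against the other pairs of chromosome 13 under 8 Mb, differed by 0.15 ± 0.55 on the log2 scale (9 libraries, two-sided exact sign-flip permutation p = 0.477, adjusted p = 0.667), since WT replicate 2 lists no such pair elsewhere. This difference was 0.06 in the libraries titled w326 and 0.22 in the others. The pairs elsewhere numbered from 6 to 38 in a library, and their spans were not matched to those of the arrays.

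In each library the median factor of the listed bins of the arrays was lower than that of listed bins elsewhere. The median factor of listed bins was 0.772 and 0.874 for E1-KO, 0.948 and 0.880 for E2-KO, 0.881 and 0.790 for E3-KO, 0.787 and 0.812 for E1&E3-dKO, and 0.697 and 0.705 in WT. In the rest of the genome the medians lay between 0.961 and 1.10. The log2 difference was -0.32 ± 0.17 (SD, n = 10), which is a ratio of 0.803, lower in 10 of 10 libraries (two-sided exact sign-flip permutation p = 0.00195, the smallest possible, adjusted p = 0.0137). It was -0.28 in the 4 libraries titled w326 (exact permutation p = 0.125, the smallest possible) and -0.34 in the other 6 (exact permutation p = 0.0312, the smallest possible). Among bins listed in all 10 libraries, 4 were in the arrays, 4 in the flank and 36 elsewhere. The 4 of the arrays had medians of 0.616 to 0.937, below those of the 36 elsewhere, 0.839 to 1.44, in each library. The arrays, 7.1 Mb long, had from 8 listed bins of 10 kb in WT replicate 2 to 111 in E2-KO replicate 1. Bins in no listed pair, and any with a factor outside 0.5 to 2, are not covered. The median span of distinct pairs was 760 kb in the window and 31865 kb in the rest of the genome. The compared bins thus came from different kinds of pair. By block, over all libraries, the median factor was 1.12 in the upstream block, 0.790 in the central block and 0.787 in the flank block. The lower factor was thus absent from the upstream block of the arrays, and the flank block had it too. A lower factor means fewer reads in a bin than the average. Its cause was not tested.

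**Figure D5:**
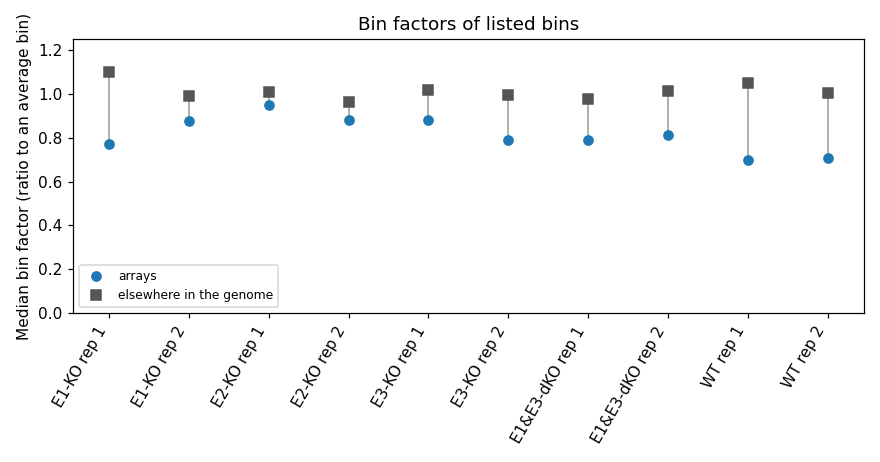
Median factor of listed bins, a ratio to an average bin, in the arrays (circles) and elsewhere in the genome (squares) for each library. The arrays lie below the rest of the genome in all 10 libraries, at 0.697 to 0.948 against 0.961 to 1.10.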

How the data were processed

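Each of the 10 exo-Hi-C libraries had an interaction list and a TAD list, 20 files, with replicates kept apart. Per the submitters' processing notes, the genome build was mm9 and the tools named are HiC-Pro 2.10.0 and HOMER. The tool and settings behind the lists are not given in the sources used here. The deposited interaction lists hold unscaled read counts for pairs of 10 kb bins, the authors' p-values and adjusted p-values of at most 0.01, and a factor per bin deposited as a ratio to an average bin. The deposited TAD lists hold a score per TAD, never under 1.5. WT replicate 2 lists every pair in both orientations, and each was used once.

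Pairs were the same if both ends lay within 1 bin, boundaries within 20 kb, and TADs at 80% reciprocal overlap. A call within these limits of more than 1 distinct pair, boundary or TAD was counted for each of them. Expected contacts were solved from the deposited p-value with a Poisson formula; the solving was tested on simulated data. Named pairs and boundaries were the 3 gained and 3 lost of each knockout with the smallest mean p or highest mean score, pairs and TADs of the window in at least 8 libraries, flank pairs in at least 2, flank TADs, and the 5 bins with most partners, with bins tied with them. Genotypes were compared by exact permutation of libraries, arrays and rest by exact sign flips (two-sided), with Benjamini-Hochberg adjustment over 7 comparisons (Python 3.11.15, scipy 1.17.1, numpy 2.4.6, pandas 2.3.3). The window, the lists and the tests were chosen with earlier results of these data known. Intervals for counts were not computed since total depth is unknown. The gene table is of GRCm38, so it gave gene names and order and no positions, and no sequence is printed.

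Alternatives were a stricter adjusted p, equal numbers of best calls, other tolerances, other limits of the arrays, the libraries titled w326 or not, and each library left out.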

Additional observations from a re-analysis of the deposited data

How the results depend on the processing

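Total depth is unknown and each list holds significant calls only, so an absent pair or TAD may lie under the threshold of its library. The short domain stayed in 7 libraries at reciprocal overlaps of 50% and 90%. Its listed ends are the same in all 7, so little change was possible. The 0 pairs between arrays and flank were counted again only at a stricter adjusted p. That setting cannot add pairs, so it does not show whether the count is stable. Differences in TAD length had no stable sign. Knockout against WT, the log2 difference was 0.90 in libraries not titled w326 and 0.11 without E2-KO (an alternative chosen after seeing the data), and lay between -0.61 and 0.30 with 1 library left out, above 0 without E2-KO replicate 1, E3-KO replicate 2 or WT replicate 1. Arrays against the rest of chromosome 13, it was -0.25 in libraries titled w326, -0.11 with the arrays ended at 67 Mb, with equal numbers of best TADs or with TADs wholly inside, 0.31 with TADs scoring at least 2 (exact sign-flip permutation p = 0.0625, the lowest of its alternatives), 0.19 in libraries not titled w326, and -0.10 to 0.11 with 1 library left out, below 0 without E1-KO replicate 1 or 2 or E1&E3-dKO replicate 1 or 2. The cause was not tested. The lower bin factor of the arrays lost its call in the 4 libraries titled w326, at -0.28 (exact sign-flip permutation p = 0.125, the smallest 4 libraries allow).

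Gained plus lost counts depended on the libraries, by construction, since a lone library replaces agreement of a pair. With 1 library left out, pairs in the window numbered 7 to 15 in E1-KO, 36 to 72 in E2-KO, 6 to 27 in E3-KO and 6 to 30 in E1&E3-dKO, and boundaries 7 to 13 in E1-KO, 15 to 40 in E2-KO, 6 to 18 in E3-KO and 8 to 17 in E1&E3-dKO. With the same bins required, pairs numbered 5 in E1-KO and 6 in E1&E3-dKO, and with the same position required boundaries numbered 8 in E3-KO.

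With replicate number as a block, the differences were 1.31 percentage points for pairs in the arrays and -0.16 for log2 TAD length (exact permutation p = 0.88), and the spreads within genotypes were 1.45 and 0.78; the block changed no call. The labels do not say that the numbers pair the libraries: replicate 1 had the higher share of pairs in 1 of 5 genotypes and the longer TADs in 4 of 5.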
